A study of Homo sapiens with 12 samples.

Results

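The cytosolic HSP70 family was followed here through 10 genes, chosen by name from the 19836 protein-coding genes of the deposited table, and all 10 were found there. They are the stress-inducible genes HSPA6, HSPA1A and HSPA1B, the constitutive gene HSPA8 (HSC70), the genes HSPA1L and HSPA2 that are known for their expression in testis, the HSP110-type exchange factors HSPA4, HSPA4L and HSPH1, and HSPA14, which works at the ribosome. RNA was taken from HEK293 cells, a long-established line from human embryonic kidney. The 12 libraries form 4 groups of 3. Vector cells (libraries 1 to 3) carried a Flag vector. A197-270 cells (libraries 4 to 6) carried the A197-270 plasmid, described by the submitters as tandem. Vector + IFN-gamma cells (libraries 7 to 9) and A197-270 + IFN-gamma cells (libraries 10 to 12) carried the same plasmids and also received interferon gamma. All groups were transduced on day 1 and harvested on day 4, and interferon gamma was given on day 2. The labels do not explain the name A197-270, nor do they tell whether the libraries of a group came from separate cultures, so p-values measure the spread between these libraries, which may be technical. The genes were proposed with their levels in A197-270 and vector cells already known. Their differences between these cells are therefore a description: no p-value of a member is printed for them, and counts of members past the threshold stand there only beside the share of all genes. The members were tested for interferon gamma and for its interaction with the construct.

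HSP70 proteins bind exposed hydrophobic stretches of unfolded clients in a cycle driven by ATP. J-domain proteins (HSP40s) bring the clients and start ATP hydrolysis, and exchange factors such as HSP110 and some BAG proteins release ADP so that the client can leave. When unfolded proteins accumulate, heat shock factor 1 (HSF1) is freed from chaperones, forms trimers and binds heat shock elements, which are inverted repeats of a short GAA unit, before the inducible genes.

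The promoter letters of HSPA6, HSPA1A, HSPA1B and HSPH1 are shown because HSF1 acts through them. Among the members without overlap between the constructs, these were the furthest apart. HSPA8, which differed less, is shown for comparison. Sequences are from RefSeq on GRCh38.p14, each the 250 bases before the annotated start, written 5′ to 3′ on the gene's strand. Capitals mark heat shock element letters, searched on both strands as 2 units (GAANNTTC or TTCNNGAA) or as 3 units, in which a further GAA or TTC follows in alternation after 2 more bases. Every match to 3 units also holds matches to 2. Units with imperfect letters or other spacing were not searched, so a window may hold elements that are not marked.
HSPA6 promoter: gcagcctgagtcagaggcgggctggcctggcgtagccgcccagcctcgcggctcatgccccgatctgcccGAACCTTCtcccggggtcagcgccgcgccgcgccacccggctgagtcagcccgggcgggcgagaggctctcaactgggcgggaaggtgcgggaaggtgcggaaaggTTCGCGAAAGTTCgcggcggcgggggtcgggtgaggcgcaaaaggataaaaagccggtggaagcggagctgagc
HSPA1A promoter: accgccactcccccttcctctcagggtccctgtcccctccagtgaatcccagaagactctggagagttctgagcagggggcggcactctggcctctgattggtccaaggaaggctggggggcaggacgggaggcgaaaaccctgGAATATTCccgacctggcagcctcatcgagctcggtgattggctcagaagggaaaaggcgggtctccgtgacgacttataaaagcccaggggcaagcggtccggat
HSPA1B promoter: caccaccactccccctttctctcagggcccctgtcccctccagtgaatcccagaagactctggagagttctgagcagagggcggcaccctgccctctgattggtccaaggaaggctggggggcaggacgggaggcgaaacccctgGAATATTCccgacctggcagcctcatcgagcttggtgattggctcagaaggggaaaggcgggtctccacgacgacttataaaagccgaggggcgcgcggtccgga
HSPA8 promoter: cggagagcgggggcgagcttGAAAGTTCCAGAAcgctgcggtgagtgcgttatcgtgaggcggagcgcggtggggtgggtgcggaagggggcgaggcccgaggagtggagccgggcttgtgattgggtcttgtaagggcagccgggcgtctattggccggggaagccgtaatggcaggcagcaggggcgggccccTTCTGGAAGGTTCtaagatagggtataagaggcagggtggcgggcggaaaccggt
HSPH1 promoter: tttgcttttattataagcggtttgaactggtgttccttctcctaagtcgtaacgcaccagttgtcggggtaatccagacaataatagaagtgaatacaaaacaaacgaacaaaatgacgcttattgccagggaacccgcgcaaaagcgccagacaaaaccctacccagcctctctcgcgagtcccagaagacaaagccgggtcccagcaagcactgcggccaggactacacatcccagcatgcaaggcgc

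Their windows lie at chr1:161524290-161524539 (plus strand) for HSPA6, chr6:31815293-31815542 (plus) for HSPA1A, chr6:31827488-31827737 (plus) for HSPA1B, chr11:123062137-123062386 (minus) for HSPA8 and chr13:31162389-31162638 (minus) for HSPH1. The RefSeq starts of HSPA1A, HSPA1B and HSPA8 used for these windows lie inside the GENCODE 29 spans given below. HSPA6 held 1 match to 3 units, which began 74 bases before the start, and a further match to 2 units at 180 bases. HSPA8 held 2 matches to 3 units, at 230 and 55 bases. HSPA1A and HSPA1B each held the same 2-unit letters GAATATTC, at 106 and 105 bases, between a pair of CCAAT matches and upstream of TATAAA. No match of either kind was found in this HSPH1 window. Of 35116 RefSeq windows of this length, 0.441% held 3 units, 11.6% held 2 units, 10.7% held TATAAA and 32.0% held CCAAT, on either strand. Windows were found for 9 members, with no entry for HSPA14. Of these 9, 2 held 3 units and 6 held 2 units, among them HSPA4L, with a match at 170 bases. HSPA1L lies head to head with HSPA1A, with 398 bases between both genes in GENCODE 29, so that its window on the minus strand overlaps that of HSPA1A and holds the same 2-unit match.

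**Figure D1:**
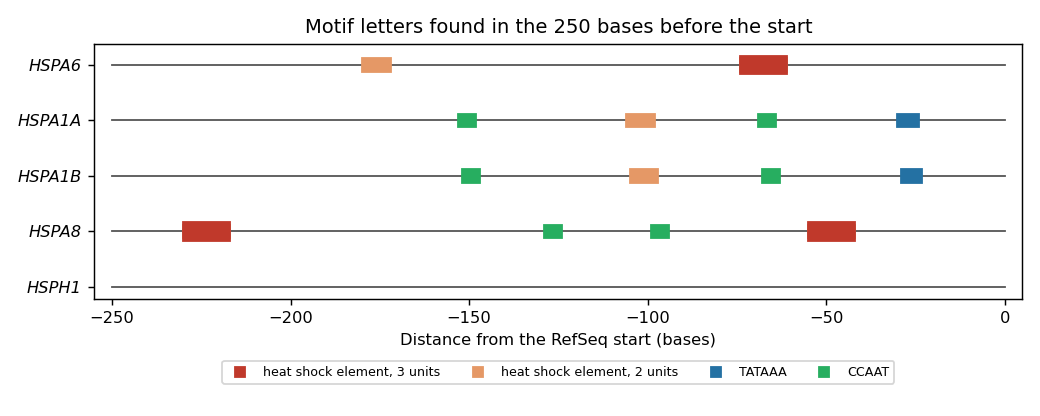
Positions of heat shock element letters (3 units and 2 units), TATAAA and CCAAT in the 250 bases before the RefSeq start of 5 members; the horizontal axis is the distance from the start in bases. HSPA6 and HSPA8 carry matches to 3 units, HSPA1A and HSPA1B carry 1 match to 2 units each, and HSPH1 carries none of these letters in this window.

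The level of a gene is given as a normalized count, the number of reads divided by 1 factor per library. Library depths ran from 31417431 to 70746868 reads. All 9 HEK293 markers examined averaged at least 10 normalized counts in every group, and their summed level was 57222 to 58965 in vector libraries and 69916 to 71888 in A197-270 libraries. The 8 markers of other cell types summed to 416 to 455 and 334 to 385 in these groups. Of these 8, EPCAM (248) and LUM (154) averaged more in vector cells than the HEK293 markers PAX2 (135), LHX1 (123) and NEFH (22.7). The rest of the 8 averaged at most 12.1 there (PECAM1). VIM (33869) and NEFM (14474) made up most of the HEK293 sum in vector cells, so the sums alone do not show what the cells are. Mitochondrially encoded transcripts, a common sign of RNA quality, accounted for 0.355% to 0.480% of reads with vector and 0.546% to 0.802% with A197-270. With interferon gamma these shares were 0.405% to 0.475% and 0.478% to 0.712%. They were thus higher with the construct, as were several HSP70 genes, and their part in the results below was not tested. In bulk RNA, more cells with a transcript and more transcript per cell cannot be told apart.

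HSPA6, a strictly inducible HSP70 that mouse and rat lack, showed the widest difference between the constructs. It lies in a single exon on chromosome 1 (ENSG00000173110.7, 161524540 to 161526910 in hg38). Vector libraries 1, 2 and 3 had 18.1, 23.97 and 21.7 normalized counts, from 15, 24 and 37 reads. A197-270 libraries 4, 5 and 6 had 7882, 7523 and 7364, from 8401, 12893 and 7009 reads. With interferon gamma, the vector libraries 7, 8 and 9 had 22.6, 27.6 and 26.9 normalized counts and the A197-270 libraries 10, 11 and 12 had 7675, 8020.4 and 8225. The groups with and without the construct were thus separated by more than their spread in both settings, and the libraries of a group lay close together. On the log2(value + 1) scale the difference was 8.42 ± 0.101 (SE), a 343-fold higher level, without interferon gamma and 8.23 ± 0.101, or 299.7-fold, with it. HSPA6 ranked 1 from the highest of 14049 tested genes in each of these comparisons.

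Some limits apply to HSPA6. Its transcript shares 45.5% of its 50-base windows with HSPA7, a pseudogene on the same chromosome that was not analysed here, and no such window with any other member. The labels give neither plasmid's sequence, and gene-level values do not tell reads of a chromosomal gene from reads of a transduced sequence with the same letters. GH1, a pituitary growth hormone gene picked here after its values were seen, went from 10560.3 ± 464 normalized counts (SD) over the 3 vector libraries to 1.33 ± 1.15 over the 3 A197-270 libraries. Whether transduced sequence contributed to the HSPA6 values was not tested.

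HSPA1A and HSPA1B, which encode the major stress-inducible HSP70, were both about as far above their vector level with interferon gamma as without it. They lie 9788 bases apart on chromosome 6 (ENSG00000204389.9, 31815464 to 31817946, and ENSG00000204388.6, 31827735 to 31830255), each as a single exon. HSPA1A had 2949, 3248 and 4458 normalized counts in the vector libraries and 6381, 7459 and 7098 in the A197-270 libraries. With interferon gamma it had 3613, 3241 and 3981 in vector cells and 6505, 7299 and 8808 in A197-270 cells. Vector library 3 and A197-270 + IFN-gamma library 12 stood highest in their groups, and no A197-270 library reached down to a vector library. The log2 difference was 0.99 ± 0.134 (SE, 1.99-fold) without interferon gamma and 1.06 ± 0.134 (2.08-fold) with it.

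HSPA1B had 19104, 20484 and 24306 normalized counts in vector cells and 37605, 39105 and 39488 in A197-270 cells. With interferon gamma the values were 19393, 22538 and 22597 against 41281, 40325 and 44561. Vector and A197-270 libraries did not overlap in either setting. The log2 difference was 0.87 ± 0.0784 (SE, 1.83-fold) and 0.97 ± 0.0784 (1.96-fold). Of the 50-base windows of the HSPA1A transcript 72.6% also occur in HSPA1B, and 67.1% of its 150-base windows do, so how reads were divided between both genes is uncertain. The ratio of HSPA1B to HSPA1A was 5.06 to 6.95 over the groups' libraries. Their sum does not depend on that division, but it would be off if reads matching both genes were left out or counted for each. The sum averaged 24849.8 ± 3493 normalized counts in vector libraries against 45712 ± 1495 with A197-270 (SD, n = 3 per group), a ratio of 1.84, and the ratio with interferon gamma was 1.97.

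HSPH1, the stress-inducible HSP110 that exchanges nucleotide on HSP70, was also higher in every A197-270 library. It lies on the minus strand of chromosome 13 (ENSG00000120694.19, 31134974 to 31162388). Its levels were 12480.1, 12143 and 12582 normalized counts in vector cells and 19176, 21249.8 and 19722 in A197-270 cells. With interferon gamma they were 13016, 13995 and 12617 against 20555, 20329.7 and 20192. The highest vector library was far below the lowest A197-270 library in both settings. The log2 difference was 0.69 ± 0.0452 (SE, 1.61-fold) without interferon gamma and 0.63 ± 0.0452 (1.54-fold) with it.

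HSPA8, the constitutive HSP70 of the cytosol and a part of the clathrin uncoating machinery, differed less. It lies on the minus strand of chromosome 11 (ENSG00000109971.13, 123057489 to 123063230). It had 48397, 52671 and 58896 normalized counts in vector cells and 63817, 66349 and 68441 in A197-270 cells, a log2 difference of 0.32 ± 0.0718 (SE, 1.25-fold). With interferon gamma the values were 50593, 57932 and 59238 against 67635, 61964 and 66093, a difference of 0.22 ± 0.0718 (1.17-fold). The groups did not overlap, but under quantile normalization the difference was 0.14 without interferon gamma and turned to -0.17 with it, and under equal totals it was 0.27 and 0.14. The direction for HSPA8 with interferon gamma thus depends on the scaling of the libraries.

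HSPA4 (APG-2), a constitutive HSP110 relative, had 22335, 21700 and 22369 normalized counts in vector cells and 22999, 24409 and 23535 in A197-270 cells, a log2 difference of 0.10 ± 0.0343 (SE). With interferon gamma the values were 20325, 20673 and 20304 against 23525, 23441 and 22990, a difference of 0.19 ± 0.0343. These groups did not overlap either, although the A197-270 level was at most 1.14-fold higher. The size depended on the scaling of the libraries. Under equal totals the difference was 0.05 without interferon gamma and 0.10 with it, and under quantile normalization 0.03 and 0.06. Its paralogue HSPA4L (APG-1) had 10605 to 11158 in vector and 10932 to 12073 in A197-270 cells, and these ranges overlapped. With interferon gamma the HSPA4L ranges, 9789 to 10637 and 10792 to 11168, did not overlap, and the log2 difference was 0.11 ± 0.0432 (SE). HSPA14 had 1861 to 2029.8 and 1916 to 2020.1, with a log2 difference of 0.02 ± 0.0556 (SE) whose sign changed under equal totals (-0.03).

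HSPA2 and HSPA1L were the members with few reads. HSPA2 had 141, 148 and 155 normalized counts in vector cells and 139, 143 and 228 in A197-270 cells, where library 6 alone stood above the vector range. HSPA1L had 15.7, 10.99 and 10.6 against 15.0, 20.4 and 32.6, again with overlap and with library 6 highest. The 95% interval of the HSPA1L fold ran from 0.834 to 3.50, so a difference of the size seen for HSPA1A could not be told from none at this depth. HSPA1L also shares 61 windows of 50 bases with HSPA1A and HSPA1B, which carry far more reads.

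**Figure D2:**
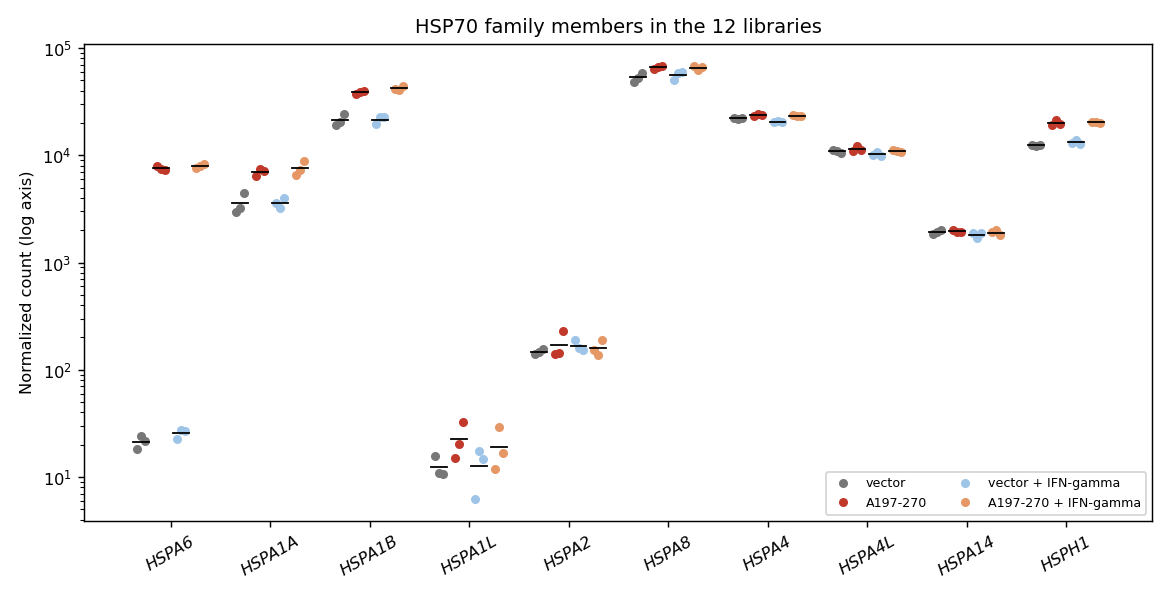
Normalized counts (vertical log axis) of the 10 members in each of the 12 libraries; points are libraries, coloured by group, and short lines are group means of 3. HSPA6 sits between 18.1 and 27.6 in the 6 libraries with vector and between 7364 and 8225 in the 6 with A197-270. The groups of HSPA14, HSPA2 and HSPA1L overlap between the constructs, and those of HSPA4L do without IFN-gamma.

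Among the members without overlap between the constructs, without interferon gamma, the strictly inducible HSPA6 thus differed most. HSPA1A, HSPA1B and HSPH1 came next, then HSPA8 and HSPA4. HSPA4L, HSPA14, HSPA2 and HSPA1L overlapped there, although the uncertain HSPA1L estimate, 0.77 ± 0.48 (SE), was above that of HSPH1. As a description that tests nothing, since the choice of genes used this contrast, 5 of the 10 members lay past an adjusted p of 0.05 upward in limma without interferon gamma (HSPA6, HSPA1A, HSPA1B, HSPH1 and HSPA8) and 0 downward, with 12.5% of all tested genes called upward and 12.6% downward. The count downward was also 0 at an unadjusted p under 0.05 and in edgeR. With interferon gamma 6 members lay past it upward, HSPA4 being added, and 0 downward, also unadjusted and in edgeR, with 18.6% and 16.2% of all genes. Of these 6, HSPA4 was no longer past it under quantile normalization, where its difference was 0.06, nor was HSPA8 under equal totals or without vector + IFN-gamma library 7 or A197-270 + IFN-gamma library 10 or 12 (differences of 0.15, 0.20 and 0.21). The members' median log2 difference was 0.50 without and 0.40 with interferon gamma, against -0.0008 and -0.0050 over all tested genes. No overlap between groups was seen for 6 members without interferon gamma and 7 with it, HSPA4L being the further one, all higher with A197-270. Over all tested genes 19.7% and 23.5% were higher and 20.1% and 22.9% lower without overlap. All 10 members passed the filter on low values, a mean of at least 10 over the 12 libraries, and HSPA1L was the nearest to it.

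**Figure D3:**
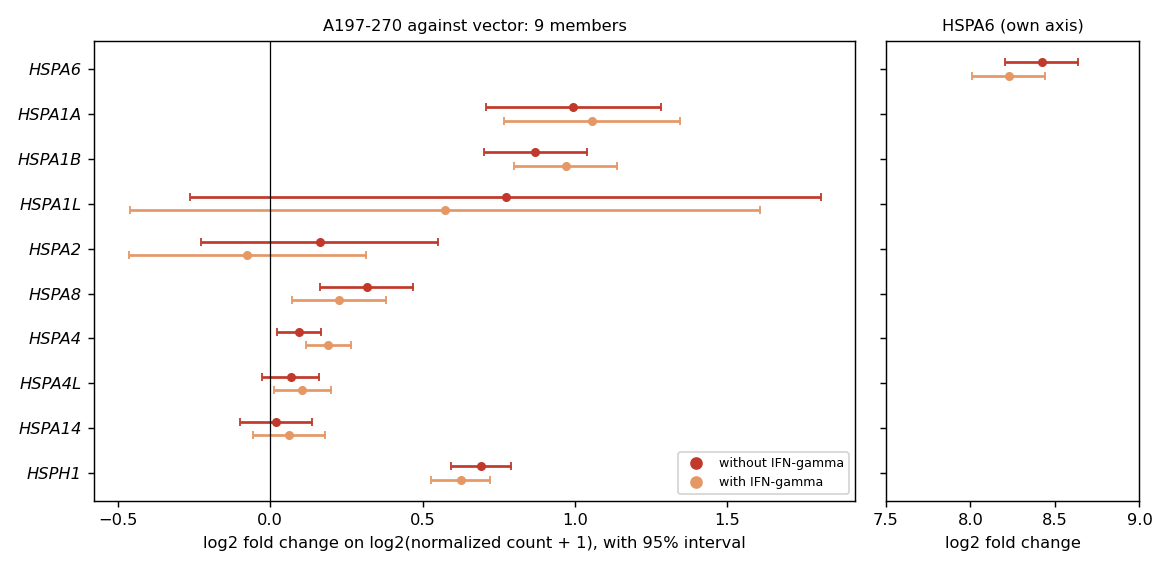
Difference between A197-270 and vector cells for each member on the log2(normalized count + 1) scale, without and with IFN-gamma; points are limma estimates and bars 95% intervals, and HSPA6 has its own axis, which does not start at 0. HSPA6 lies at 8.42 and 8.23, and HSPA1A, HSPA1B and HSPH1 lie between 0.63 and 1.06. The intervals of HSPA14, HSPA2 and HSPA1L include 0 in both settings, and that of HSPA4L does without IFN-gamma.

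Levels of different members were compared per kilobase of annotated exon. In vector cells the order was HSPA8 (10996 ± 1089 normalized counts per kilobase, SD, n = 3), HSPA1B (8448 ± 1069), HSPA4 (4296 ± 73.2), HSPH1 (1478 ± 27.4), HSPA1A (1430.4 ± 322), HSPA4L (937 ± 23.9), HSPA14 (732 ± 32.6), HSPA2 (25.6 ± 1.19), HSPA6 (8.97 ± 1.26) and HSPA1L (4.88 ± 1.11). The libraries of HSPH1 and HSPA1A overlapped, so their order is not distinguished with this length. With the longest transcript as length HSPH1 made up 5.92% of the family's sum and HSPA1A 3.50%. The order of HSPA4L and HSPA14 is not distinguished with that length, where 10790 and 1904 bases replace 11621 and 2644. In A197-270 cells HSPA6 stood at 3201 ± 112 per kilobase, from 3106 to 3324, just above HSPA1A at 2811 ± 221, from 2570 to 3004. HSPA6 was thus below HSPA2 in vector cells and above HSPA1A in A197-270 cells. The HSPA1A level is itself uncertain, since its reads may be mixed with those of HSPA1B. HSPA6 was also above HSPH1 (2389.65 ± 128), but with the longest transcript as length it was below HSPH1 (5.42% against 6.53% of the sum). The summed family level per kilobase was 28357 ± 2511 in vector and 43769 ± 1138 in A197-270 cells, a ratio of 1.54, and the ratio was 1.58 with interferon gamma.

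The make-up of that sum shifted accordingly. HSPA6 made up 0.0317% ± 0.00424 of it with vector and 7.32% ± 0.447 with A197-270 (SD, n = 3 per group). HSPA1A and HSPA1B together went from 34.7% ± 1.76 to 41.5% ± 0.288, and HSPA8 from 38.8% ± 0.675 to 31.2% ± 0.527. HSPA4 went from 15.2% ± 1.28 to 10.5% ± 0.187. With interferon gamma in both arms the corresponding shares were 0.0377% and 7.45% for HSPA6, 34.8% and 43.6% for HSPA1A with HSPA1B, and 40.2% and 29.8% for HSPA8. HSPA8 has 24 annotated transcripts, and taking the length of its longest transcript in place of all merged exons gave it 53.3% in vector and 45.4% in A197-270 cells, above HSPA1A with HSPA1B (24.3% and 30.7%) in both. Which of them leads in A197-270 cells therefore depends on the length used, while the directions given here for HSPA6, HSPA1A with HSPA1B, HSPA8 and HSPA4 did not. HSPH1 with interferon gamma had 5.50% ± 0.406 with vector and 5.38% ± 0.209 with A197-270, and the order turned with the longest transcript (6.16% and 6.50%).

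**Figure D4:**
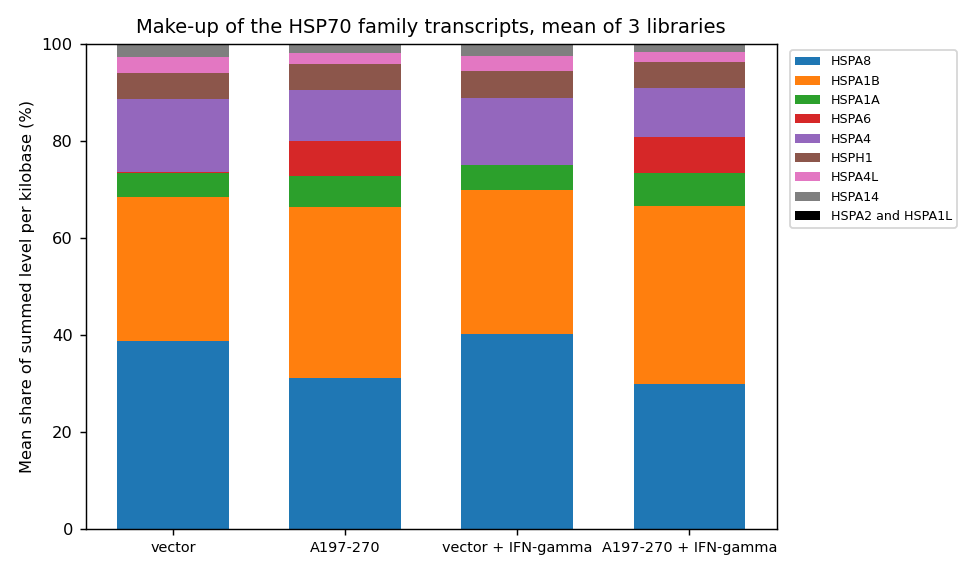
Mean share (%) of each member in the family's summed level per kilobase, in the 4 groups of 3 libraries; bars start at 0 and sum to 100. The HSPA6 segment is 0.0317% in vector and 7.32% in A197-270 cells, and the HSPA8 segment goes from 38.8% to 31.2%.

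Whether interferon gamma alone changed the family was tested in each arm. IRF1, a known interferon gamma target, went from 391 ± 17.2 to 4573 ± 202 normalized counts in vector cells (SD, n = 3 each). Among the HSP70 genes only HSPA4 passed in vector cells, where it fell by 0.12 ± 0.0343 on the log2 scale (SE, limma adjusted p = 0.0328, all 3 libraries below all 3 without it), and 0 rose. That is 1 of 10 downward, with 9.79% of all tested genes called downward and 7.32% upward. At an unadjusted p under 0.05 there were 2 members downward (HSPA4 and HSPA4L) and 1 upward (HSPA6), and edgeR called 1 and 0. The HSPA4 call was lost when any of 5 of the 12 libraries was left out, namely vector 1, 2 or 3 or vector + IFN-gamma 7 or 9, with limma adjusted p-values up to 0.105, and under equal totals (0.115) and quantile normalization (0.387).

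The members furthest apart between the constructs hardly moved with interferon gamma in vector cells. HSPA6 differed by 0.27 ± 0.101 (SE, limma adjusted p = 0.0859), HSPA1A by 0.04 ± 0.134 (adjusted p = 0.868), HSPA1B by 0.02 ± 0.0784 (adjusted p = 0.909) and HSPH1 by 0.09 ± 0.0452 (limma adjusted p = 0.192). The 95% interval allows HSPA6 a fold of 1.03 to 1.40 and HSPA1B one of 0.901 to 1.14. HSPA6 passed when libraries were scaled to equal totals (limma adjusted p = 0.0444) or when vector 2 (0.0399) or vector + IFN-gamma 7 (0.0337) was left out, and its adjusted p over all alternatives ran from 0.0337 to 0.504. HSPH1 was higher in every library with interferon gamma than in any without, where 16.3% of all tested genes were higher and 19.2% lower without overlap. It passed under equal totals (limma adjusted p = 0.0409) and HSPA8 under quantile normalization (0.00103).

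In A197-270 cells 0 of the 10 members passed for interferon gamma in limma in either direction, 0 at an unadjusted p under 0.05 and 0 in edgeR, where 7.19% of all tested genes were called. HSPA6 differed by 0.07 ± 0.101 (SE, limma adjusted p = 0.749), with a 95% interval of -0.14 to 0.29. The HSPA1B libraries with interferon gamma all lay above those without (40325 or more against 39488 or less), where 12.1% of all tested genes were higher without overlap, and the difference of 0.12 ± 0.0784 did not pass (limma adjusted p = 0.432). HSPA8 differed by -0.02 ± 0.0718 and HSPH1 by 0.02 ± 0.0452.

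The interaction, which subtracts the interferon gamma difference with vector from that with A197-270, passed for 0 of the 10 members in either direction in limma, also unadjusted and in edgeR, where 0.897% of all tested genes were called. For HSPA6 it was -0.19 ± 0.142 (SE, limma adjusted p = 0.613), for HSPA1B 0.10 ± 0.111 (adjusted p = 0.757) and for HSPA4 0.10 ± 0.0484 (limma adjusted p = 0.454). A p that misses the threshold does not show equal responses, and the interval for HSPA6 spans a fold of 0.708 to 1.08.

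**Figure D5:**
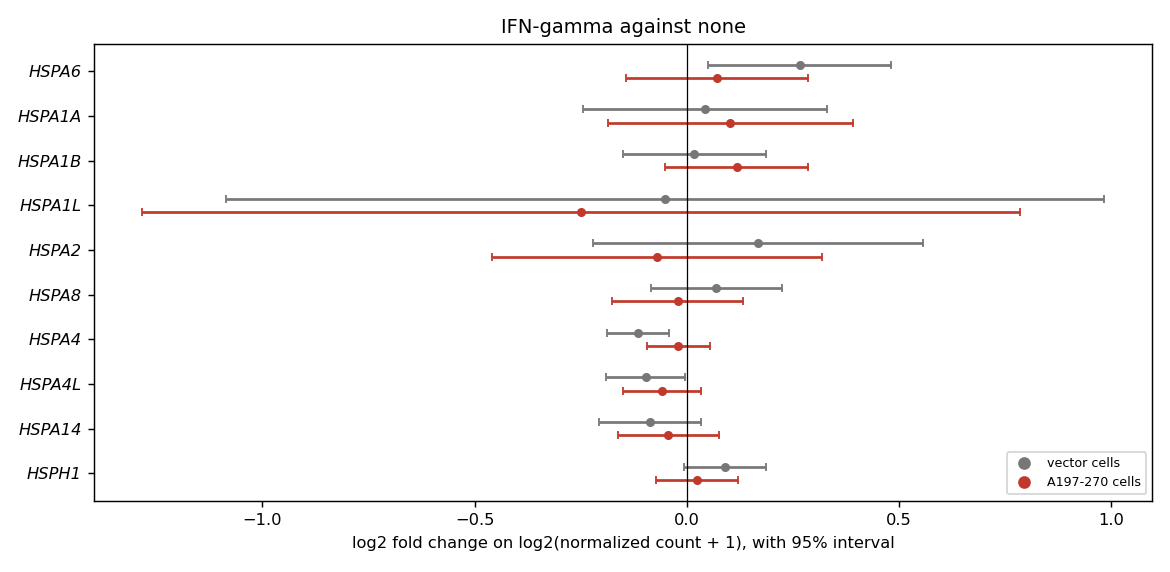
Difference between cells with and without IFN-gamma for each member on the log2(normalized count + 1) scale, in vector and in A197-270 cells; points are limma estimates and bars 95% intervals. Except for HSPA6, HSPA4 and HSPA4L in vector cells, every interval includes 0, and HSPA1L has the widest.

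The genes that work with HSP70 were split. Their lists were drawn up with results of these data known, so their calls are not independent evidence. Unlike those of the members, these calls were not compared between ways of scaling the libraries. Of the 35 listed helpers and relatives 34 were tested, and without interferon gamma 8 were higher and 6 lower in A197-270 cells, with 20 not passing. This is 23.5% and 17.6%, against 12.5% and 12.6% of all genes, and their median log2 difference was -0.01. With interferon gamma 9 were higher and 4 lower (26.5% and 11.8%), against 18.6% and 16.2% of all genes. Among 9 J-domain co-chaperones tested, 1 rose and 3 fell without interferon gamma. There DNAJB1, the stress-inducible HSP40 partner of HSPA1A, rose by 1.46 ± 0.0778 (SE, limma adjusted p = 4.66e-09). DNAJA1, a mainly constitutive HSP40, fell by 0.29 ± 0.0428 (limma adjusted p = 0.000225). With interferon gamma in both arms 1 of the 9 was higher and 1 lower, and DNAJA1 differed by 0.10 ± 0.0428 (limma adjusted p = 0.0814).

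Of 7 further genes listed under exchange factors (the BAG genes and HSPBP1) 2 rose and 1 fell without interferon gamma. Whether each of the 7 exchanges nucleotide on HSP70 was not examined. BAG3, which links HSP70 to selective autophagy, rose by 1.16 ± 0.0594 (limma adjusted p = 2.97e-09), BAG6 rose by 0.32, and BAG1 fell by 0.46 ± 0.0643 (limma adjusted p = 0.000157). Of 8 adaptors and partners 4 rose and 1 fell without interferon gamma. HSP90AB1, the constitutive HSP90, rose by 0.37 (limma adjusted p = 5.46e-05). HSP90AA1, the inducible form, rose by 0.16, close to the threshold (limma adjusted p = 0.0471). Of 6 HSP70 relatives outside the cytosol or of divergent sequence 1 passed, HYOU1, which rose by 0.13 (limma adjusted p = 0.0452). The ER member HSPA5 (BiP) differed by -0.09 ± 0.125 (limma adjusted p = 0.669) and the mitochondrial member HSPA9 by 0.11 ± 0.0392 (adjusted p = 0.0625). With interferon gamma in both arms 2 of these 6 were higher, HSPA9 by 0.24 ± 0.0392 (limma adjusted p = 0.000335) and HYOU1 by 0.29. Of 4 genes of heat shock factors and their binding protein 1 passed without interferon gamma. HSF1 differed by -0.06 ± 0.06 (limma adjusted p = 0.535) and HSF2 fell by 0.24.

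DNAJA1 was the 1 helper of 34 that passed the test of whether its interferon gamma response differed between the arms, with an interaction of 0.39 ± 0.0605 (SE, limma adjusted p = 0.00243). That is 2.94% of the helpers, against 0.897% of all tested genes. With interferon gamma in vector cells 6 of the 34 fell and 1, DNAJB1, rose by 0.28 (limma adjusted p = 0.0251). This is 17.6% lower and 2.94% higher, against 9.79% and 7.32% of all tested genes. With interferon gamma DNAJA1 fell by 0.16 in vector cells (limma adjusted p = 0.0222) and rose by 0.24 in A197-270 cells (adjusted p = 0.00307).

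The genes with the most similar profiles were found by the root mean square difference of log2(value + 1), centred on each gene's mean, over the 12 libraries and 12657 genes. No gene was close to HSPA6. The distance is not scaled for the size of differences, so this adds nothing to the rank of 1 that HSPA6 had between the constructs. The genes nearest to HSPA6, C8orf4 and CRYAB (a small heat shock protein), were 2.76 and 2.77 away, with log2 differences between the constructs of 2.53 and 3.07 without interferon gamma. For HSPA1A the nearest were HSPA1B (0.134), BAG3 (0.151), LOX (0.198), TFRC (0.201) and the mitochondrially encoded MT-ND4L (0.22). HSPA1A shares 72.6% of its 50-base windows with HSPA1B, and the part of shared reads in their nearness was not tested. For HSPH1 they were ZFAND2A (0.0984), PGK1 (0.118), FLNC (0.121), TRIB3 (0.121) and CBX5 (0.122). Distances for HSPA6 to DNAJB1, MT-CYB and TFRC were 3.46, 3.58 and 3.59.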

How the data were processed

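Per the submitters' processing notes, HISAT2 2.1.0, StringTie 1.3.3b and DESeq2 1.22.1 were used with build hg38, without roles given, and the annotation release and strand handling are not given in the sources used here. The authors deposited normalized counts, treated here as a signal: whole gene read counts divided by 1 factor per library. Every value (100%), divided by its column's smallest step, came out whole to within 0.001, which gave the read counts back. Differences were fitted with limma 3.58.1 (R 4.3.3, mean-variance trend) on log2(value + 1) over 14049 genes with a mean of at least 10, with all 12 libraries in 1 model of 4 group means. P-values are two-sided and Benjamini-Hochberg adjusted over all tested genes within a comparison (threshold 0.05). edgeR 4.0.16 (quasi-likelihood, recovered reads) was an alternative. This scale understates changes of low genes, and read counts cover counting error only. The fit was tested on simulated data. Positions and lengths are from GENCODE 29 (GRCh38), which holds 19804 of the 19836 identifiers and all 10 members. Members and lists were chosen with earlier results of these data known. Named genes are the members, genes of the fixed lists and the 5 nearest profiles of HSPA6, HSPA1A and HSPH1 among genes with a mean of at least 50; GH1 and IRF1 were added after their values were seen. A planned comparison of the members' protein sequences was not made here.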

Additional observations from a re-analysis of the deposited data

How the results depend on the processing

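No paired analysis was possible because the labels give each library a number of its own. Of 850 member fold changes recomputed under alternative settings 829 stayed on their side of the threshold, 13 fell below it, 7 passed it and 1 reversed, which was HSPA8 for A197-270 against vector with interferon gamma under quantile normalization (-0.17); the cause was not tested. Of the 829, 35 changed sign, in 9 members, HSPA6 being the exception, and 0 of these passed the threshold in either setting. Counts of called members for the construct stayed within 1.5 times throughout, except for 1 member lower with interferon gamma under quantile normalization in place of 0, which is HSPA8. For interferon gamma in vector cells, the count higher went from 0 to 2 under equal totals and 1 under quantile normalization, and the count lower from 1 to 0 under both. Leaving out each library in turn gave 0 to 1 in both directions. With the longest transcript as length, shares were 0.0221%, 5.42%, 0.0261% and 5.57% for HSPA6, 53.3%, 45.4%, 54.8% and 43.9% for HSPA8, and 24.3%, 30.7%, 24.1% and 32.7% for HSPA1A with HSPA1B, in vector, A197-270, vector + IFN-gamma and A197-270 + IFN-gamma cells. Without HSPA1L no share moved by more than its SD. Depth limits HSPA1L, and HSPA6 in vector cells.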
